A study of Mus musculus with 9 samples.

Results

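The genes described here are glucocorticoid-responsive genes of the mouse bladder: Tsc22d3, Fkbp5, Sgk1, Zbtb16, Klf9, Mt1, Mt2, Errfi1 and Cebpd. They were chosen by symbol from the array's probe-to-gene annotation, for a higher signal in the tumour-bearing bladder given 1.7 mM alpha1-oleate than in the sham-treated one. That difference is therefore described below without a test. Of the 9 listed genes, 8 had a probe set that names them alone, among 17097 genes in all, and Mt2 is not analysed here. Each gene is represented by its probe set with the highest mean over the 9 arrays. All 8 lay among the 11969 genes kept after the lowest 30% of means (below 4.16 on the log2 scale) were left out.

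Glucocorticoids, chiefly corticosterone in mice, are steroid hormones released by the adrenal cortex in a daily rhythm and under stress. They bind the glucocorticoid receptor (Nr3c1), which waits in the cytoplasm in a complex with Hsp90 and its partner proteins, moves to the nucleus once bound, and activates genes that carry its response element while it damps many inflammatory genes. The genes chosen here code for feedback regulators of the receptor, kinase signalling proteins, transcription factors and metal-binding proteins, and several of them also answer to other signals such as zinc, osmotic stress or growth factors.

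The promoters of Sgk1 and Mt1 are shown because they hold the letters of the response elements for which these genes are known. The sequences are RefSeq promoter windows of build GRCm38.p6, from 250 bases before to 50 bases after a transcript start, written 5′ to 3′ on the gene's strand. In the Sgk1 window (chr10:21993640-21993939, plus strand) the capitals mark a match to the palindromic glucocorticoid response element (AGAACA, any 3 bases, then TGTTCT), at -189 to -175 from the start. In the Mt1 window (chr8:94178839-94179138, plus strand) they mark the 3 matches to the core of the metal response element (TGCACNC or TGCGCNC), which begin at -23, 3 and 21.
Sgk1: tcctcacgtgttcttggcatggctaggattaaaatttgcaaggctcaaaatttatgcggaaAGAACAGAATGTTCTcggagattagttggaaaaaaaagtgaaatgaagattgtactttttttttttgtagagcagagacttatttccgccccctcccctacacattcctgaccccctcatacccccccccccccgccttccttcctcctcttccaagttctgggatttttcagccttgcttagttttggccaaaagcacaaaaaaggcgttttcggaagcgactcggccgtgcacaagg
Mt1: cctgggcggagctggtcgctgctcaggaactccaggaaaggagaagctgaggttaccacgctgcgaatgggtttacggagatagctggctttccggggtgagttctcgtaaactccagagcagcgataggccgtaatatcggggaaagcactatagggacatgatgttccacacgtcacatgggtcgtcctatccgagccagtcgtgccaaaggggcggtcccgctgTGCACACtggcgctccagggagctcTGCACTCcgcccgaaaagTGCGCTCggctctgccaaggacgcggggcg
Searched on both strands, the full palindrome was found in 3 of 32851 mouse promoter windows (0.00913%) and in 1 of the 15 windows that matched 7 of the 9 genes. Its single arm TGTTCT, which every full match contains, was found in 4 of these 15 windows and in 19.0% of all windows. Sgk1 had 6 of the 15 windows, of which 1 is shown, and the windows with the arm belonged to Sgk1 and Tsc22d3 alone. The metal response element core was found in 3 of the 15 and in 25.7% of all windows. A match describes letters in this window and says nothing of binding.

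The samples were whole bladders of female C57BL/6J mice, 1 array each, from 2 numbered experiments. In the tumour groups MB49 cells, a mouse bladder carcinoma line, had been instilled on day 0 after poly-L-lysine, and the bladders were taken on day 12. Experiment 1 holds 5 arrays, from a healthy bladder given PBS, a tumour bladder given PBS (the sham treatment), and tumour bladders given alpha1-oleate, a peptide and oleate complex, at 1.7, 8.5 or 17 mM in repeated instillations from day 3 to day 11. Experiment 2 holds 4 arrays, from a healthy and a tumour bladder given PBS, and from bladders labelled healthy and given 17 mM alpha1-oleate, taken after 24 h or 7 d. The labels give no collection time for the healthy PBS bladders and no age. They do not say whether arrays are of separate or pooled animals, and p-values therefore cover the spread among these samples alone, which may be technical. The PBS groups, healthy and tumour, hold 2 arrays each, 1 from either experiment. Every other group holds 1, and this small number of arrays limits the precision.

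The 2 experiments had been normalized apart, with array medians of 4.42 to 4.45 in experiment 1 and 4.2 to 4.24 in experiment 2, so levels are compared within an experiment. The array labelled healthy, 17 mM, 24 h differed from healthy PBS in several marker lists, and whether its label holds was not tested. Its proliferation genes (5 above the filter of 6 listed) averaged 6.74 log2, against 3.49 in the healthy and 8.85 in the tumour PBS bladder of experiment 2. Its liver genes (4 of 7) averaged 7.59 against 5.26 in healthy PBS, led by albumin (Alb) at 8.80, which also read 8.83 and 10.15 in the tumours given 8.5 and 17 mM. Urothelial genes averaged 9.50 in that array and 10.14 in healthy PBS. That array is the only one of its group and adds nothing to the fits of the other comparisons. Leaving it out therefore could not change their counts. In whole tissue, fewer cells of a type and less RNA per cell cannot be told apart.

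**Figure D1:**
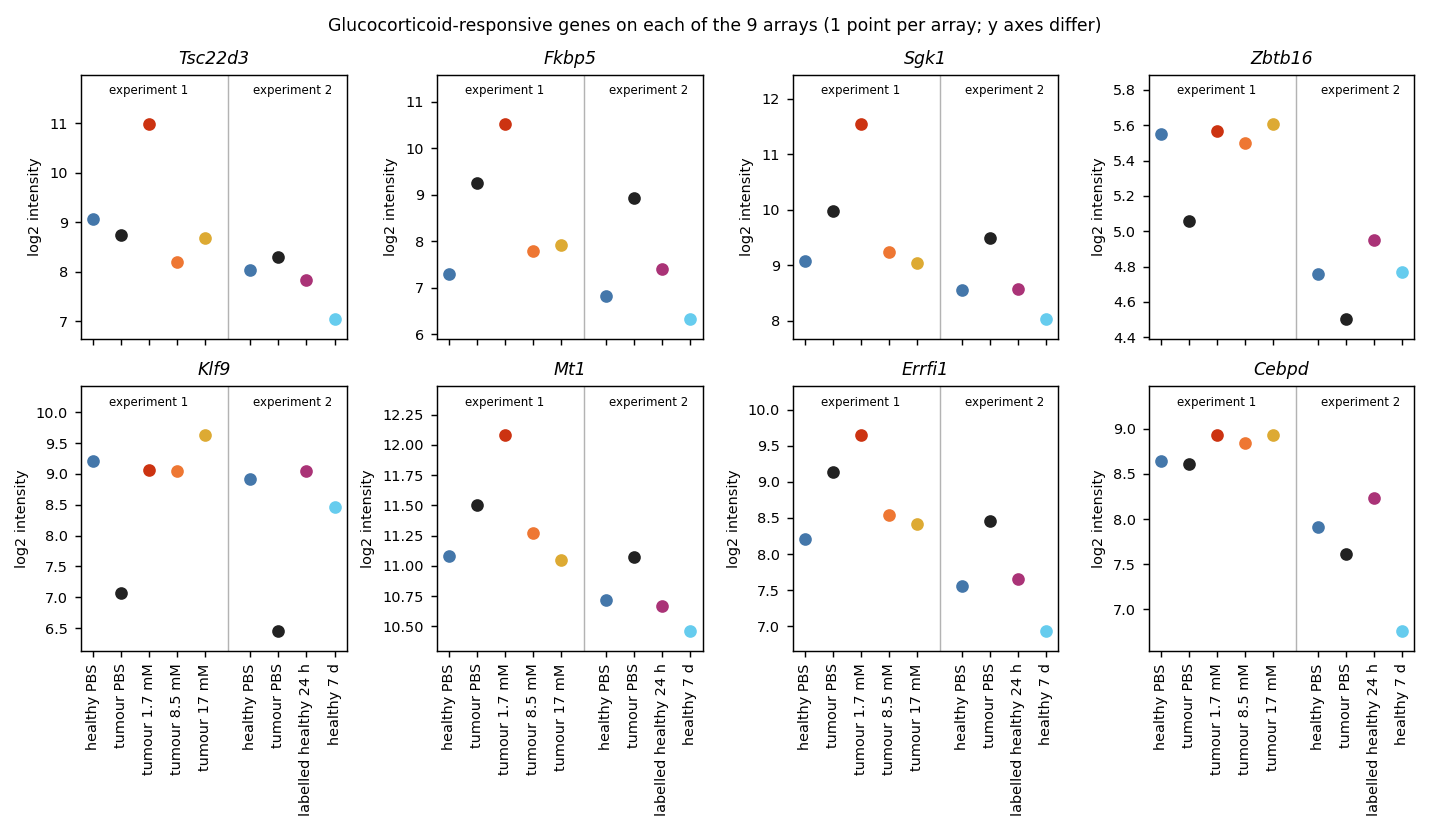
Log2 intensity (y axis, a scale per panel) of the 8 measured genes on each of the 9 arrays, 1 point per array, with a grey line between the experiments. Tsc22d3, Fkbp5, Sgk1, Mt1 and Errfi1 are highest in the tumour given 1.7 mM, whereas Klf9 and Zbtb16 are lowest in the sham-treated tumours.

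In the tumour given 1.7 mM, 5 of the 8 genes stood above every other bladder of experiment 1, and 3 of them by at least 2-fold: Tsc22d3, Sgk1 and Fkbp5. Klf9, Zbtb16 and Cebpd did not stand apart there, because other bladders of the experiment read as high. This contrast chose the genes, so its sizes are a description.

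Fkbp5 codes for a co-chaperone that lowers the receptor's affinity for hormone and so closes a feedback loop. In experiment 1 its level was 7.29 in healthy PBS, 9.26 in tumour PBS, 10.53 at 1.7 mM, 7.79 at 8.5 mM and 7.92 at 17 mM (log2). In experiment 2 it was 6.83 in healthy PBS, 8.94 in tumour PBS, 7.41 in the array labelled healthy at 24 h and 6.32 at 7 d. The tumour at the lowest dose was thus the highest of its experiment, and the tumours at both higher doses lay below the sham-treated one and nearer to the healthy bladder. The 1.7 mM array was 2.41-fold above the sham-treated tumour and 9.45-fold above the healthy bladder. A further Fkbp5 probe set gave a difference from the sham-treated tumour of 1.22 log2 against 1.27, and a dim probe set of mean 2.72 gave -0.04.

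Tsc22d3, which codes for the glucocorticoid-induced leucine zipper GILZ, a protein that restrains inflammatory transcription, showed the largest difference of the 8 genes. Its levels in experiment 1 were 9.06 in healthy PBS, 8.75 in tumour PBS, 10.99 at 1.7 mM, 8.20 at 8.5 mM and 8.69 at 17 mM. In experiment 2 they were 8.03, 8.30, 7.84 and 7.04 in healthy PBS, tumour PBS, the 24 h array and the 7 d array. Only the 1.7 mM array of experiment 1 was high, while healthy and sham-treated tumour bladders were close together. It was 4.72-fold above the sham-treated tumour and 1.93 log2 above the next highest array, the healthy bladder. A further probe set gave 2.52 log2 over the sham-treated tumour, and a dim one 0.07.

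Sgk1 codes for a serum- and glucocorticoid-induced kinase that promotes sodium transport and cell survival. Its levels were 9.07 in healthy PBS, 9.97 in tumour PBS, 11.55 at 1.7 mM, 9.23 at 8.5 mM and 9.04 at 17 mM. In experiment 2 they were 8.56, 9.49, 8.57 and 8.02, in the order healthy PBS, tumour PBS, 24 h and 7 d. As with Fkbp5, the lowest dose had the highest level and both higher doses read close to the healthy bladder. The 1.7 mM array was 2.99-fold above the sham-treated tumour and 5.58-fold above the healthy bladder.

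Errfi1 codes for an inhibitor of the EGF receptor family (MIG6). It read 8.21 in healthy PBS, 9.14 in tumour PBS, 9.65 at 1.7 mM, 8.54 at 8.5 mM and 8.41 at 17 mM. In experiment 2 it read 7.55, 8.46, 7.65 and 6.93 in the same order as above. The order of the bladders was that of Fkbp5 in experiment 1 except that 8.5 mM lay above 17 mM, and the excess at 1.7 mM was smaller, 0.51 log2 over the sham-treated tumour.

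Mt1 codes for metallothionein 1, a cysteine-rich protein that binds zinc and copper and is induced by metals as well as by glucocorticoids. Its levels were 11.08 in healthy PBS, 11.50 in tumour PBS, 12.08 at 1.7 mM, 11.27 at 8.5 mM and 11.05 at 17 mM. In experiment 2 they were 10.72, 11.07, 10.67 and 10.46. The 1.7 mM array was again the highest, by 0.58 log2 over the sham-treated tumour. The dimmer Mt1 probe set gave 0.28, and the one used is of a type that may also detect near-identical transcripts.

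The 3 transcription factors followed other patterns. Klf9, a Krüppel-like factor that restrains proliferation and answers to glucocorticoids and the daily clock, read 9.21 in healthy PBS, 7.06 in tumour PBS, 9.06 at 1.7 mM, 9.05 at 8.5 mM and 9.63 at 17 mM. In experiment 2 it read 8.92, 6.45, 9.04 and 8.47. Both sham-treated tumours were low and every other bladder was high, so its 4.0-fold difference at 1.7 mM was matched by the other doses. Of its 5 probe sets, 4 gave differences of 1.35 to 2.0 log2 at 1.7 mM and 1 set of mean level 4.26 gave -0.01. The dimmest set, of mean 3.62, gave 1.89.

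Zbtb16 codes for PLZF, a zinc finger repressor and a classic glucocorticoid target. It read 5.55, 5.06, 5.57, 5.50 and 5.61 in experiment 1, in the order healthy PBS, tumour PBS, 1.7, 8.5 and 17 mM. In experiment 2 it read 4.76, 4.50, 4.95 and 4.77. It shared the low sham-treated tumours with Klf9 on a smaller scale, and its second probe set gave -0.05 log2 at 1.7 mM against 0.51.

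Cebpd codes for the transcription factor C/EBP delta, which takes part in acute-phase and fat cell gene programmes. It read 8.64, 8.61, 8.93, 8.84 and 8.93 in experiment 1 and 7.91, 7.61, 8.23 and 6.76 in experiment 2. The 1.7 and 17 mM arrays were level, 0.32 log2 above the sham-treated tumour, and the lowest value was that of the healthy bladder at 7 d.

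Over all genes above the filter, 2.26% were at least 2-fold higher at 1.7 mM than in the sham-treated tumour, and 4 of the 8 chosen genes were. The 1.7 mM array was above each other array of experiment 1 in 14.5% of all genes and in 5 of the 8. It was at least 2-fold above each of them in 0.267% of all genes, which is 32 genes, and in 3 of the 8. Of the 8 genes, those nearest to that threshold of 1 log2 on either side were Fkbp5 at 1.27 and Mt1 at 0.58. Since these genes were picked on this array, nothing is read from the difference between their share and that of all genes. The 1.7 mM result rests on 1 array, with no replicate.

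**Figure D2:**
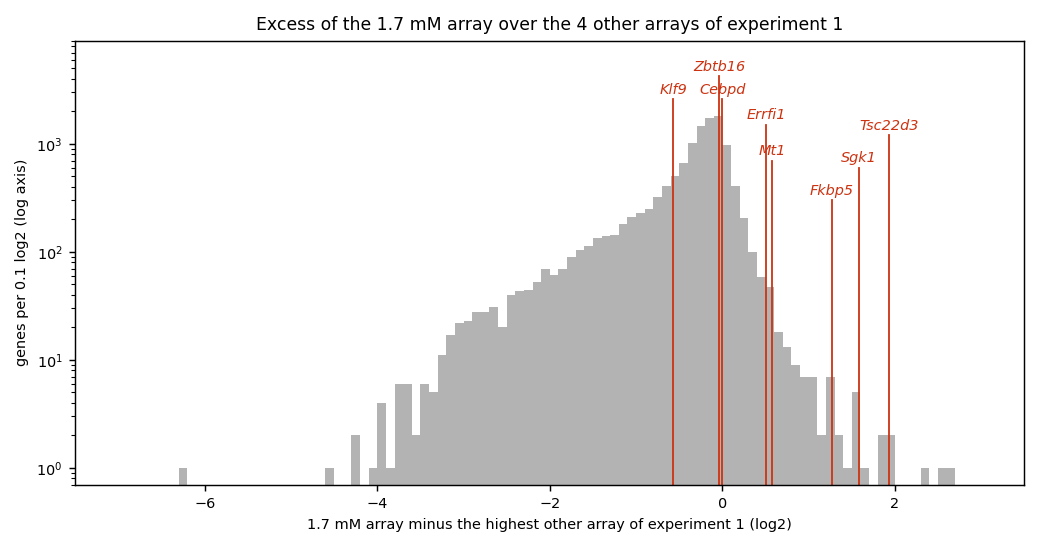
Number of genes (log axis) by the excess of the 1.7 mM array over the highest of the 4 other arrays of experiment 1 (x axis, log2), for the 11969 genes above the filter, with the chosen genes as red lines. Tsc22d3, Sgk1 and Fkbp5 lie beyond 1 log2, Mt1 and Errfi1 at 0.58 and 0.51, and Klf9 at -0.57.

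A list of 28 further genes known to be induced by glucocorticoids had 26 with a probe set and 23 above the filter. In the 1.7 mM array 13 of these 23 were at least 2-fold above the sham-treated tumour and 0 at least 2-fold below. Over all genes the shares were 2.26% and 0.276%. The median difference of the 23 genes was 1.28 log2, against -0.01 over all genes. The list was written with earlier results of these arrays known, so this too is a description.

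Some genes of this list were high in the 1.7 mM array alone. Fam107a, an actin-associated protein induced by stress, read 4.27 in healthy PBS, 4.13 in tumour PBS, 7.03 at 1.7 mM, 4.37 at 8.5 mM and 4.34 at 17 mM. Arrdc2, an arrestin-domain protein, read 5.18, 5.23, 7.57, 4.68 and 4.82 in the same order. With Ddit4, an inhibitor of mTORC1 signalling, and the kinase Map3k6, they were the 4 genes of the list at least 2-fold above every other array of experiment 1, by 2.66, 2.34, 1.5 and 1.22 log2. This last pair of genes was named after their values were seen. Like Tsc22d3, Sgk1 and Fkbp5, these 4 were highest at 1.7 mM by a wide margin.

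Others, like Klf9, were high in healthy bladder, low in the sham-treated tumour and higher at every dose. Pdk4, a kinase that shuts pyruvate out of oxidation, read 8.46 in healthy PBS, 3.97 in tumour PBS, 7.11 at 1.7 mM, 6.68 at 8.5 mM and 7.31 at 17 mM. Fmo2, a flavin monooxygenase, read 8.57, 4.88, 7.24, 8.57 and 9.09. Both, and also Cd163, Sult1a1, Rgs2 and Plin4, were at least 2-fold above the sham-treated tumour at every dose. Not every gene of the list followed one of these profiles: Angptl4, an inhibitor of lipoprotein lipase, read 6.85, 9.69, 9.01, 8.78 and 8.21, highest in the sham-treated tumour. At 1.7 mM, urothelial genes averaged 7.92 log2 against 7.09 in the sham-treated tumour and 10.63 in healthy bladder, and smooth muscle genes 10.14 against 9.50 and 10.87. The part of regained bladder tissue in these genes was not tested.

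**Figure D3:**
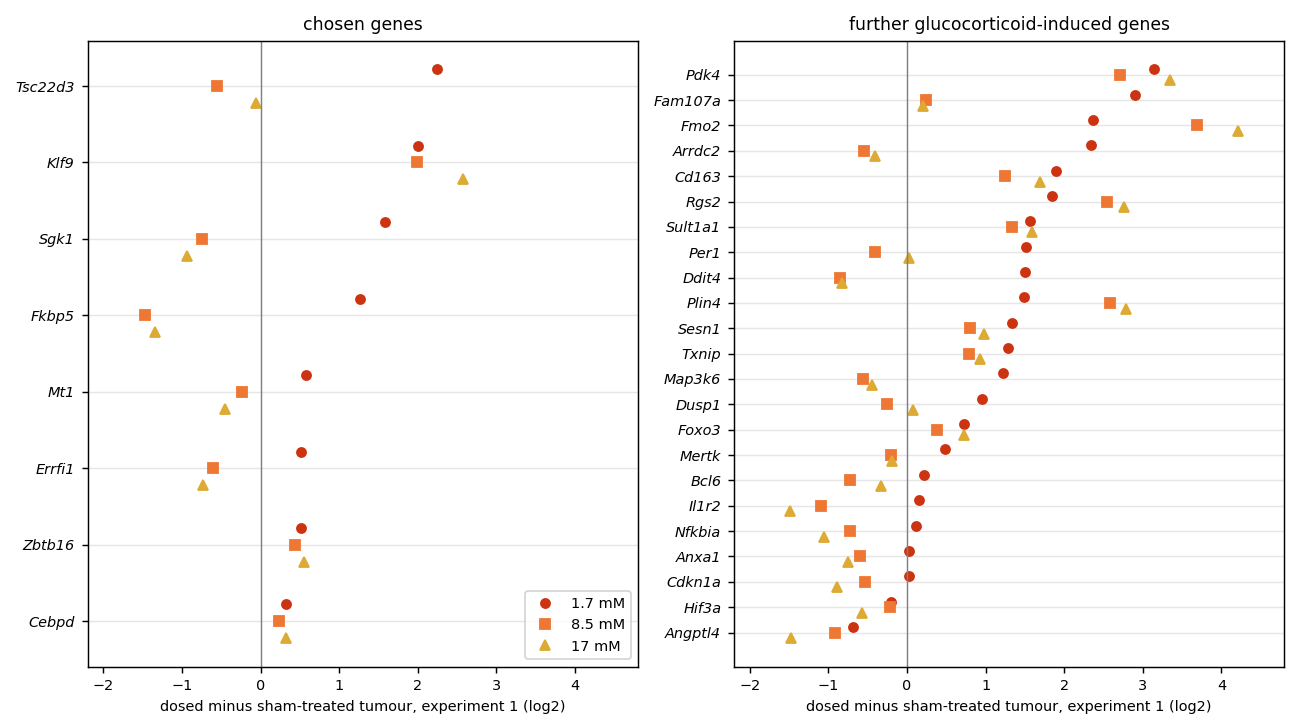
Difference of each dosed tumour from the sham-treated tumour of experiment 1 (x axis, log2) for the 8 chosen genes (left) and the 23 further glucocorticoid-induced genes above the filter (right), with circles for 1.7 mM, squares for 8.5 mM and triangles for 17 mM, 1 array each. Tsc22d3, Sgk1, Fkbp5, Fam107a, Arrdc2 and Ddit4 are far to the right at 1.7 mM only, whereas Klf9, Pdk4 and Fmo2 are to the right at all 3 doses.

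Genes that glucocorticoids are known to repress, chiefly cytokines, chemokines and matrix proteases, were 14 listed and 13 above the filter. At 1.7 mM 4 of the 13 were at least 2-fold below the sham-treated tumour and 0 at least 2-fold above. These were the collagenase Mmp13 at -1.39 log2 and the chemokines Cxcl2 at -1.10, Ccl2 at -1.04 and Cxcl1 at -1.03. The same 4 read still lower at 17 mM, where Mmp13 was at 7.94 log2 against 8.66 at 1.7 mM and 10.05 in the sham-treated tumour. Neutrophil marker genes (4 above the filter of 5) averaged 7.18 at 1.7 mM, 8.42 in the sham-treated tumour and 6.92 at 17 mM, and their part was not tested. The immediate early genes rise within minutes of many stimuli and of tissue handling. Of the 7 above the filter, 0 were at least 2-fold different at 1.7 mM, and Fos differed most, by 0.70 log2. Over all genes 2.26% were at least 2-fold higher and 0.276% at least 2-fold lower, so nothing is read from this count. The part of tissue handling was not tested.

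Among zinc-handling genes (5 above the filter of 6), the brain-type metallothionein Mt3 read 4.78 in healthy PBS, 8.0 in tumour PBS, 9.22 at 1.7 mM, 6.5 at 8.5 mM and 6.01 at 17 mM. It was the 1 gene of this list at least 2-fold above every other array of experiment 1, and like Mt1 it was highest at 1.7 mM and next highest in the sham-treated tumour. The zinc exporter Slc30a1, a standard target of the metal-responsive transcription factor, differed by 0.20 log2 at 1.7 mM.

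The receptor gene Nr3c1 was 0.23 log2 above the sham-treated tumour at 1.7 mM. It read 8.18 in healthy PBS, 8.78 in tumour PBS, 9.01 at 1.7 mM, 8.31 at 8.5 mM and 8.56 at 17 mM. Hsd11b1, the enzyme that regenerates active hormone inside cells, read 7.46, 7.80, 8.89, 9.26 and 9.15, so that it was higher at each dose. Hsd11b2, which inactivates the hormone, was under the filter, with readings of 3.29 to 4.41 over the 9 arrays.

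In the sham-treated tumours 4 of the 8 chosen genes rose against healthy bladder and 1 fell. The fit was made with limma over all genes, with the experiment as a block, and genes were called at a Benjamini-Hochberg adjusted p under 0.05. The sham-treated tumour array of experiment 1 also served to choose the genes, whereas the arrays of experiment 2 did not. Fkbp5 rose by 2.04 log2 (SE 0.10, limma adjusted p = 0.00256), with 1.97 in experiment 1 and 2.11 in experiment 2. Klf9 fell by 2.31 (SE 0.12, limma adjusted p = 0.00275), with -2.15 and -2.47 within the experiments. These were the largest differences in each direction, and both experiments gave nearly the same size.

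Sgk1 rose by 0.92 log2 (SE 0.09, limma adjusted p = 0.00593), and the values within the experiments were 0.90 and 0.93. Errfi1 rose by 0.92 (SE 0.09, limma adjusted p = 0.00585), with 0.93 and 0.91. Mt1 rose by 0.39 (SE 0.09, limma adjusted p = 0.0372), with 0.42 and 0.35. For each of these genes the tumour PBS bladder was above the healthy PBS bladder in both experiments.

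Zbtb16 at -0.38 log2, Cebpd at -0.17 and Tsc22d3 at -0.02 did not pass, with limma adjusted p of 0.0603, 0.298 and 0.933. Tsc22d3 was the 1 gene of the 8 whose direction differed, with -0.31 in experiment 1 and 0.27 in experiment 2. Of all genes, 28.6% were called higher and 28.6% lower in tumour, so calls in this comparison were common. The median difference of the 8 genes was 0.18 log2, against -0.01 over all genes. Without the experiment block 2 of the 8 genes passed, Fkbp5 and Klf9.

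**Figure D4:**
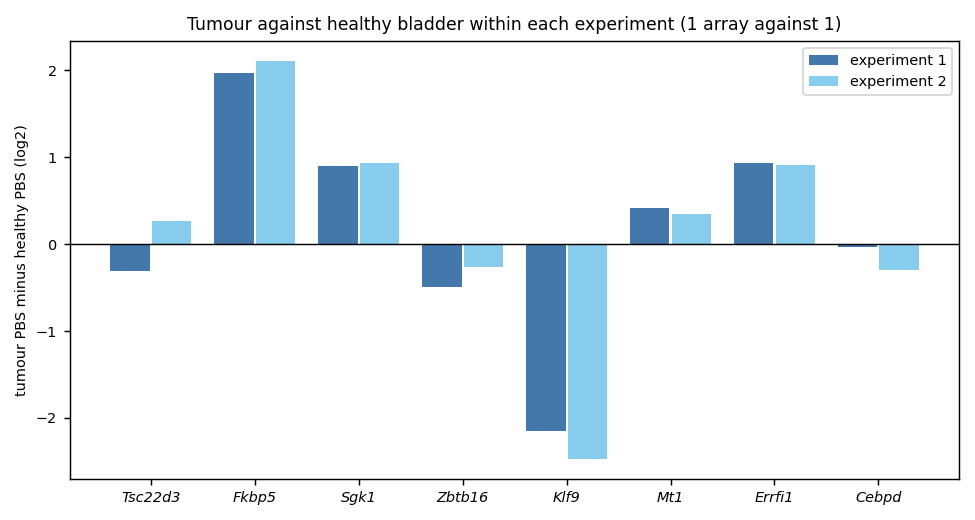
Tumour PBS minus healthy PBS (y axis, log2) for each chosen gene in experiment 1 (dark bars) and experiment 2 (light bars), 1 array against 1 in each. Fkbp5 is near 2 and Klf9 below -2 in both experiments, and Tsc22d3 has opposite signs.

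The lists around them moved in both directions in the tumours, where 28.6% of all genes were called higher and 28.6% lower. Of the 23 further induced genes 8 rose and 8 fell, among them Pdk4 at -4.62 log2 (limma adjusted p = 0.0024) and Il1r2, the decoy receptor for interleukin 1, at 3.15 (0.00382). Nr3c1 rose by 0.87 (limma adjusted p = 0.0261), while the mineralocorticoid receptor Nr3c2, which binds the same hormone, fell by 2.08 (0.0024). In the receptor list 4 of 8 rose, with the chaperone Hsp90aa1 and its adaptor Stip1 among them, and 3 fell. Of the 13 genes known to be repressed, 10 rose and 1 fell. Beside them, macrophage markers rose in 5 of 5 cases (median 2.26 log2), neutrophil markers in 3 of 4 (3.74) and T and NK cell markers in 4 of 5 (2.01), and their part was not tested. Proliferation genes averaged 9.67 log2 in tumour PBS and 4.03 in healthy PBS of experiment 1.

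At 17 mM, 3 of the 8 chosen genes fell against the sham-treated tumour and 1 rose. Fkbp5 fell by 1.38 log2 (SE 0.13, limma adjusted p = 0.0186), Sgk1 by 0.94 (SE 0.12, 0.0246) and Errfi1 by 0.73 (SE 0.12, 0.0347). Klf9 rose by 2.65 (SE 0.16, limma adjusted p = 0.0159). This comparison shares its sham-treated arrays with the one above. The sham-treated array of experiment 1 also served to choose the genes, so a low value there favours a rise here too. The dosed group has 1 array, so p-values of this comparison do not measure variation between dosed bladders.

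Mt1 at -0.43 log2, Zbtb16 at 0.49, Cebpd at 0.39 and Tsc22d3 at -0.21 did not pass at 17 mM, with limma adjusted p of 0.0850, 0.0947, 0.156 and 0.571. Of all genes 15.7% were called higher and 10.6% lower. The median difference of the 8 genes was -0.32 log2 (all genes, -0.05). Without the experiment block 1 of the 8 genes passed, Klf9.

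At 8.5 mM Fkbp5 fell by 1.51 log2 (SE 0.13, limma adjusted p = 0.0259) and Sgk1 by 0.75 (SE 0.12, 0.0444), and Klf9 rose by 2.07 (SE 0.16, 0.0254). Errfi1 at -0.60 and Tsc22d3 at -0.70 did not pass (limma adjusted p = 0.0612 and 0.152). Mt1, Zbtb16 and Cebpd, at -0.21, 0.38 and 0.30, did not pass either. Of all genes 11.0% were called higher and 4.66% lower, and without the experiment block Klf9 alone of the 8 passed. The median difference of the 8 genes was -0.40 log2, against -0.04 over all genes. Both doses were set against the same sham-treated arrays, and that of experiment 1 also served to choose the genes. The 8.5 mM group also has 1 array, so its p-values do not measure variation between dosed bladders. The difference between the low and the high doses was not tested, since the 1.7 mM array chose the genes.

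Of the 23 further induced genes 8 rose and 3 fell at 17 mM, and 6 rose and 1 fell at 8.5 mM. Over all genes 15.7% were called higher and 10.6% lower at 17 mM, and 11.0% and 4.66% at 8.5 mM. Fmo2 at 4.14 log2, Pdk4, the G-protein regulator Rgs2 and the lipid-droplet protein Plin4 led at 17 mM (limma adjusted p = 0.0159 for each). Hsd11b1 rose by 1.52 at 17 mM (SE 0.27, limma adjusted p = 0.042) and by 1.63 at 8.5 mM (0.0491). Urothelial genes rose as well, in 9 of 9 cases at both doses, as did smooth muscle genes in 7 of 7 at 17 mM and 5 of 7 at 8.5 mM. Their part in the values of Klf9 and of these genes was not tested. Proliferation genes averaged 7.93 log2 at 17 mM, 8.41 at 8.5 mM and 9.67 in the sham-treated tumour of experiment 1. Neutrophil genes averaged 6.92, 6.88 and 8.42 in that order, and macrophage genes 8.23, 8.64 and 8.72. The part of these lists in the lower values of Fkbp5, Sgk1 and Errfi1 was not tested.

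In the bladders labelled healthy and given 17 mM, 0 of the 8 genes passed the limma test at 24 h or at 7 d. At those times 0.0% and 0.0% of all genes were called, and the smallest limma adjusted p over all genes was 0.0568 and 0.403. At an unadjusted p under 0.05, limma gave 1 of the 8 genes and 2503 genes at 24 h, and 5 of the 8 and 1096 genes at 7 d. These arrays were not used to choose the genes.

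At 24 h Fkbp5 stood 0.58 log2 above the healthy PBS bladder of experiment 2, and its fitted difference was 0.55 (SE 0.13, limma adjusted p = 0.18). The others lay between -0.19 for Tsc22d3 and 0.32 for Cebpd. The proliferation and liver genes that read high in that array are given above, and their part was not tested.

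At 7 d 7 of the 8 genes were below the healthy PBS bladder of experiment 2, Zbtb16 at 0.01 being the exception. Of all genes, 55.4% were below. Cebpd was lower by 1.15 log2 and Tsc22d3 by 0.99, Errfi1 by 0.62, Sgk1 by 0.54, Fkbp5 by 0.51, Klf9 by 0.45 and Mt1 by 0.26. For Tsc22d3, Fkbp5, Sgk1, Mt1, Errfi1 and Cebpd this was the lowest of all arrays of the experiment. The share of all genes lowest in that array was not counted, so nothing is read from this. The fitted differences of Cebpd and Tsc22d3 were -1.08 (SE 0.15) and -1.14 (SE 0.24), with limma adjusted p of 0.488 and 0.51. The median fitted difference of the 8 genes was -0.55, against -0.02 over all genes.

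Of the 23 further induced genes 16 were below healthy PBS at 7 d, where 55.4% of all genes were. Among the 23, Dusp1, a phosphatase of MAP kinases, had a fitted -1.04 log2 and the clock gene Per1 -0.94, neither passing. Outputs of the daily clock are given beside them, of which 0 passed the limma test at 7 d (smallest adjusted p of the list 0.42, for Dbp). Dbp, a clock-driven transcription factor, read 8.04 in healthy PBS, 4.32 in tumour PBS, 7.89 at 24 h and 5.39 at 7 d, and its relative Tef 8.64, 6.14, 8.15 and 7.44. Arntl, a core clock activator, read 5.13, 7.24, 5.83 and 6.05. Of the 8 clock genes above the filter 6 were below healthy PBS at 7 d, beside the 55.4% of all genes. Their median was -0.81 log2, against -0.04 over all genes. Nothing is read from the counts of either list. The labels give no time of day, and the part of the clock in the 7 d values was not tested.

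**Figure D5:**
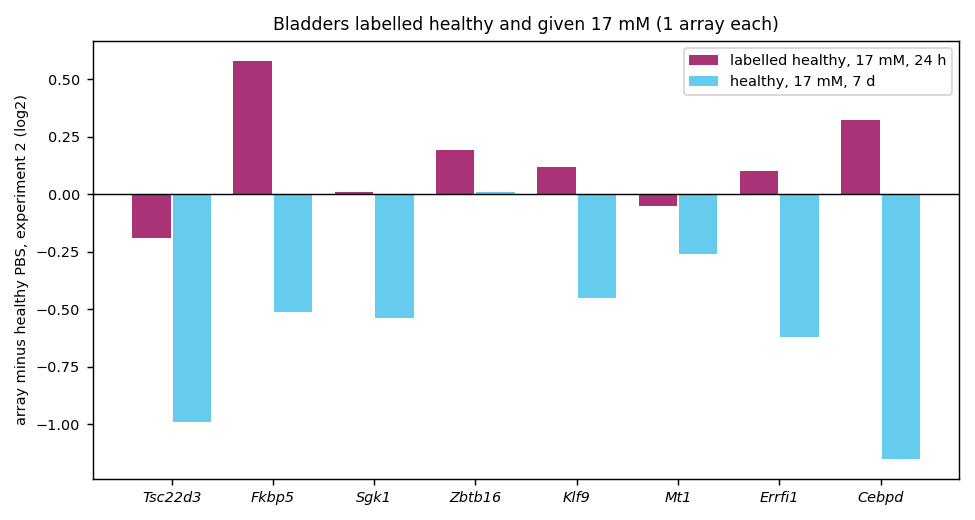
Difference from the healthy PBS bladder of experiment 2 (y axis, log2) for each chosen gene, with dark bars for the array labelled healthy, 17 mM, 24 h and light bars for the 7 d array, 1 array each. At 7 d 7 of the 8 genes lie below 0, down to -1.15 for Cebpd, and at 24 h Fkbp5 is the highest at 0.58.

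Over the 9 arrays, centred within each experiment, the chosen genes fell into groups. This is a description over few arrays that share their normalization, and the 1.7 mM array carries much of it. Sgk1 and Mt1 had a Pearson correlation of 0.99, Fkbp5 and Errfi1 of 0.98, and Tsc22d3 and Sgk1 of 0.89. Klf9 and Zbtb16 had 0.94 with each other and -0.56 and -0.39 with Fkbp5. The highest correlation of Cebpd was 0.36, with Tsc22d3. Each gene was also correlated with the mean of the 8 genes, of which it is itself a part. The value was 0.94 for Tsc22d3 and -0.05 for Klf9, so the mean mostly describes the group of Tsc22d3.

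The 5 genes whose centred values were most like that mean were Prune2 with a Pearson correlation of 0.99, Zfp945 and Epn2 with 0.98, Pla2g7 with 0.97 and Tigd2 with 0.96, each over 9 arrays. Prune2 read 7.13 in healthy PBS, 7.32 in tumour PBS, 8.83 at 1.7 mM, 6.91 at 8.5 mM and 7.24 at 17 mM, and in experiment 2 6.52, 6.99, 6.67 and 5.69. Like Tsc22d3 it was high at 1.7 mM and lowest at 7 d.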

How the data were processed

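Per the labels' protocols, RNA was extracted from frozen, pulverised bladder and 100 ng went into labelling with Affymetrix's GeneChip 3' IVT Express reagents. The values deposited by the authors are log2 intensities made with RMA, and Transcriptome Analysis Console 4.0.1.36 was used, per the submitters' processing notes. A build of the genome is not given in the sources used here. Sorted values of arrays of 1 experiment deviated from their mean by 0.022 log2 and those of the 2 experiments differed by 0.329, so the experiments had been normalized separately. The experiment number in the labels therefore served as a block. Across 11969 genes, deviations from the group mean correlated at 0.647 (Pearson) between the healthy and tumour PBS arrays of the same experiment. The part of the separate normalization in this value was not tested.

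Of 45077 probe sets, 28898 named 1 gene, 551 several and 15588 none, and 40 were controls. Of those naming 1 gene, 28689 were matched to the gene table by Entrez number. limma 3.58.1 (lmFit and eBayes, R 4.3.3) was fitted to all 9 arrays as 7 groups plus the block, with 1 residual and 2.23 prior degrees of freedom, and p-values were adjusted by Benjamini-Hochberg over 11969 genes. Single-array groups were assumed to vary like the replicated ones. The procedure was tested on simulated data, in which all groups were given the same spread. That test therefore cannot show whether single-array groups vary like the replicated ones. Tables and figures were made in Python 3.11.15 with matplotlib 3.10.9, pandas 2.3.3 and numpy 2.4.6.

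The genes and lists were chosen with earlier results of these data known. Named were the 9 listed genes, up to 4 of each further list by size of difference with passing genes preferred, Nr3c1, Hsd11b1 and Hsd11b2, and the 5 genes most like the mean. The excess over the other arrays of experiment 1 and the sign count at 7 d were measures added after the values were seen. Levels are not compared between genes. Alternatives tried were a fit with no block, joint quantile normalization of the 9 arrays, no filter or the lowest 50% left out, the mean of a gene's probe sets, a variance trend, and leaving out arrays.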

Additional observations from a re-analysis of the deposited data

Results flagged for a closer look

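Tsc22d3 was lower in the tumour PBS than in the healthy PBS bladder of experiment 1, by -0.31 log2, and higher in experiment 2, by 0.27 log2. The direction differed between the experiments, with 1 array against 1 in each, and the difference between them was not tested.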

How the results depend on the processing

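Without the replicate block the count of chosen genes passing was 2 in place of 5 for tumour against healthy, 1 in place of 4 at 17 mM and 1 in place of 3 at 8.5 mM; every other alternative gave 5 or 6, 4 or 5, and 2 to 4, and all gave 0 at 24 h and 7 d. With the block, the limma adjusted p of Sgk1 at 8.5 mM ranged from 0.0205 to 0.0534 and passed under all settings but no filter. Over all genes the calls without the block were 3172, 1217 and 945 in place of 6852, 3147 and 1874 in these comparisons, and 126 at 24 h and 15 at 7 d in place of 0. With all arrays quantile-normalized together 3274 genes were called at 8.5 mM, 784 at 24 h and 28 at 7 d. At 24 h the lowest 50% left out gave 121, the mean of probe sets 96 and the variance trend 198. Reversed without the block were Tsc22d3 at 17 mM (0.165 log2) and, at 24 h, Sgk1 (-0.245), Zbtb16 (-0.205), Klf9 (-0.025), Errfi1 (-0.23) and Cebpd (-0.045). Sgk1 at 24 h was -0.0218 after joint quantile normalization. With the mean of probe sets Tsc22d3 in tumour against healthy was 0.075 and Zbtb16 at 7 d 0.035. At 1.7 mM other probe sets gave -0.04 for Fkbp5, -0.05 for Zbtb16 and -0.01 for Klf9. None of the fitted values among these passed the test in the fit reported, and the cause was not tested. Leaving out 1 PBS array at a time left no residual degrees of freedom, so values without a test resulted. In tumour against healthy they only repeat the differences within each experiment. These were 1.97 and 2.11 for Fkbp5, -2.15 and -2.47 for Klf9, and -0.31 and 0.27 for Tsc22d3. They are no separate check. Alternative values of the fitted differences of the chosen genes were sorted by how they moved. Of these, 368 kept their direction and side of the threshold or moved within the spread. Another 36 moved further, 9 reversed, 9 lost their call and 5 gained one. Part of the 368 could not move. Leaving out the 24 h array changes none of these values, and the filter settings leave each difference unchanged. Those that moved included Tsc22d3 at 17 mM, at -0.64 in place of -0.21 without the tumour PBS array of experiment 1.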
